A study of Mus musculus with 10 samples.

Results

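The genes described here are 10 genes for auxiliary proteins of the AMPA receptor and their relatives: Shisa3, Shisa6, Shisa7, Shisa9, Cnih2, Cnih3, Gsg1l, Vwc2, Vwc2l and Olfm3. They were chosen by symbol among the 56884 genes of the count table, and all 10 had enough counts to be among the 17622 genes tested. The list was drawn up with the fold changes and calls of DHT against void in these same counts known, so differences between the treatments are a description of these genes and not independent evidence. RNA came from the hippocampus of 10 ovary-intact female P301S (PS19) mice, which carry a human Tau transgene (hTau) with the P301S mutation under the mouse Prnp promoter. From 6 months of age, 5 of them carried a SILASTIC implant with 10 mm of DHT, an androgen that aromatase cannot turn into estrogen, and the other 5 an empty (void) implant. Tissue was taken after 12 weeks, at 9 to 9.5 months, and each mouse gave 1 mRNA library with 27188854 to 47113661 counts. Both groups carry the transgene, and non-transgenic mice are not analysed here. The column names number the void libraries from 4 to 11 and the DHT libraries from 18 to 23, and the place of a library in that order cannot be told apart from treatment. Mice are named by group and replicate number (void 4, DHT 6), and levels are in CPM (counts scaled to a common library size after TMM normalization). Markers of the hippocampal fields were present in every mouse: the 6 dentate granule cell markers summed to 462 to 705 CPM and the 5 CA1 pyramidal cell markers to 572 to 745 CPM. Lists of markers of other regions also gave counts, with 351 to 506 CPM for neocortex, 176 to 284 CPM for thalamus and 181 to 242 CPM for striatum. The share of tissue from outside the hippocampus was not tested.

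AMPA receptors are the glutamate-gated channels that carry most fast excitatory transmission, and their pore subunits work together with auxiliary proteins that set their export, anchoring and gating. Shisa6, Shisa7 and Shisa9 are single-pass membrane proteins of the cystine-knot family, and their C-terminal ends bind PDZ domains of postsynaptic scaffolds. Cnih2 and Cnih3 are cornichons, which help AMPA receptors leave the endoplasmic reticulum and slow their closing, while Gsg1l is a claudin-like protein that dampens AMPA receptor currents. Vwc2 (brorin), Vwc2l (brorin-like) and Olfm3 (noelin 3) are secreted proteins found in native AMPA receptor complexes, the first pair being antagonists of bone morphogenetic proteins. Shisa3 belongs to the same family by name but is known as an endoplasmic reticulum protein that holds back Wnt and FGF receptors.

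The coding ends show which Shisa genes share the PDZ-binding end. The last 24 coding bases before the stop codon are given for 4 genes from GENCODE M21 transcripts (GRCm38), with the last 12 bases, which encode the end of the protein, in capitals. All 4 stretches lie in the last exon of their transcript. The Shisa3 stretch (exon 2 of 2) is at chr5:67611449-67611472 on the plus strand, Shisa6 (exon 5 of 5) at chr11:66217475-66217498 on the minus strand, Shisa7 (exon 5 of 5) at chr7:4829638-4829661 on the minus strand and Shisa9 (exon 5 of 5) at chr16:12267777-12267800 on the plus strand.
Shisa3: agctgtccagatTTCAGTTCCAGT
Shisa6: gccagcaagactGAAGTGACCGTG
Shisa7: gccagcaagaacGAAGTGACTGTC
Shisa9: aacagcaaaacaGAAGTGACTGTC
Shisa7 and Shisa9 carry the same final 12 bases. The Shisa6 end differs from them only in bases that leave the encoded amino acids the same, and Shisa3 ends otherwise. Over the aligned coding sequence, Shisa6 and Shisa9 were 65.8% identical and Shisa7 and Shisa9 64.3%. Cnih2 and Cnih3, with 480 coding bases each, were 77.1% identical.

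Levels differed widely between the genes when counts were set against gene length. Per kilobase of exon (union of the exons annotated in GENCODE M21, which may not be the annotation used for counting), Cnih2 stood highest at 140.0 ± 29.99 CPM per kb (SD, n = 10 mice). Shisa6 followed with 32.8 ± 6.20, Shisa7 with 27.0 ± 3.58 and Cnih3 with 20.5 ± 3.41 CPM per kb. Shisa9 was at 13.2 ± 1.72, Gsg1l at 7.84 ± 2.31 and Olfm3 at 7.22 ± 1.32 CPM per kb. The secreted brorins were low, with Vwc2l at 2.15 ± 0.681 and Vwc2 at 0.992 ± 0.129 CPM per kb, and Shisa3 was the lowest at 0.127 ± 0.145 CPM per kb. The clearest steps in this order were those from Cnih2 to Shisa6, from Olfm3 to Vwc2l and from Vwc2 to Shisa3, where the ranges over the mice did not touch. Gsg1l and Olfm3 could not be put in order, since Gsg1l was the higher of the pair in 6 of 10 mice. Within the cornichons, Cnih2 exceeded Cnih3 in all 10 mice.

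Between the treatments, 9 of the 10 genes had a negative log2 fold change (log2FC, DHT against void), and their median was -0.24, against 0.01 over all genes tested, of which 47.6% were negative. Shisa9 and Gsg1l, 2 of the 10, were called lower at an adjusted p under 0.05 (edgeR, quasi-likelihood test, Benjamini-Hochberg over all genes tested), where 0.261% of all genes tested were called lower. None of the 10 was called higher, where 5.22% of all genes were, so that 2 of 10 were called in either direction against 5.48% of all genes. With a log2FC beyond 1 in addition, 0 of the 10 and 2.19% of all genes were called. At an unadjusted p under 0.05, 5 of the 10 (Shisa3, Shisa9, Gsg1l, Vwc2 and Vwc2l) and 4.22% of all genes were lower. Nothing is read from these shares, since the genes were chosen with them known. In Shisa9 and Vwc2 every DHT mouse was below every void mouse, which held for 0.88% of all genes tested. The plot of levels by mouse shows all values. Because the tissue is whole hippocampus, fewer cells of a type and less RNA per cell cannot be told apart in any of these differences.

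**Figure D1:**
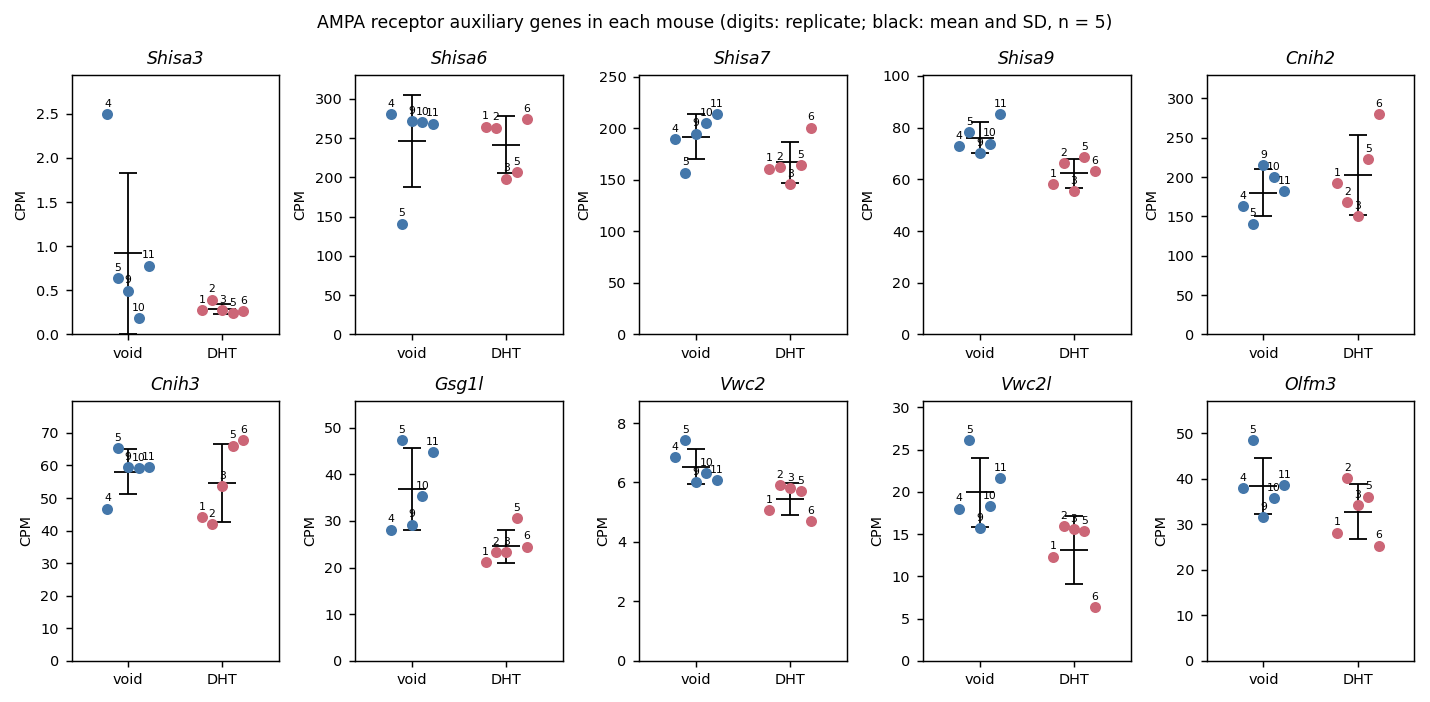
Level of each of the 10 genes (CPM, linear axes from 0) in 5 void (blue) and 5 DHT (red) mice, with the replicate number beside each point and the mean and SD in black. The groups do not overlap for Shisa9 and Vwc2, a single void mouse (4) sets the void mean of Shisa3, and void 5 stands far below the other void mice for Shisa6.

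Among the genes of the cystine-knot family, Shisa9, which slows the recovery of AMPA receptors from desensitization and is best known from dentate granule cells, was at 72.9, 78.4, 70.1, 73.8 and 85.2 CPM in void 4, 5, 9, 10 and 11. In DHT 1, 2, 3, 5 and 6 it was at 58.1, 66.3, 55.3, 68.5 and 63.3 CPM. The groups were apart by a narrow margin, with DHT 5 and void 9 nearest to each other. The means were 76.1 ± 5.89 with void and 62.3 ± 5.51 CPM with DHT (SD, n = 5 each), which is a log2FC of -0.29 (standard error, SE, 0.07). The 6 dentate granule cell markers, summed, lay between 473 and 705 CPM with void and between 462 and 677 CPM with DHT, and 0 of the 6 were called by edgeR (median log2FC -0.13). Of these, 4 were negative, down to -0.20, and 2 positive, with Dsp the highest at 0.41. The paper reports, from Nissl staining, a smaller area of the dentate granule cell layer with DHT, which is not a measure of RNA. A link between that area and Shisa9 was not tested.

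Shisa7, which also associates with GABA-A receptors, ranged from 157 CPM in void 5 to 214 in void 11 and from 146 in DHT 3 to 200.5 in DHT 6. In the DHT group 4 of the 5 mice lay between 146 and 164 CPM, while DHT 6 was among the void mice. Its log2FC was -0.20 (SE 0.10), with means of 192 ± 21.6 and 167 ± 20.2 CPM (SD, n = 5 each).

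For Shisa6, which keeps AMPA receptors at the synapse and limits their desensitization, 4 void mice were between 268 and 280.5 CPM, and void 5 was at 141. The DHT mice were at 265, 263, 198, 206 and 275 CPM in the order of their replicate numbers. DHT 1, 2 and 6 thus sat close to the 4 void mice and DHT 3 and 5 below them, and the log2FC was -0.03 (SE 0.17). Without void 5 it was -0.18.

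Shisa3 was near the limit of detection. The void mice 4, 5, 9, 10 and 11 gave 118, 20, 16, 5 and 26 counts, or 2.49, 0.639, 0.496, 0.184 and 0.779 CPM. The DHT mice 1, 2, 3, 5 and 6 gave 10, 16, 13, 8 and 9 counts, or 0.273, 0.395, 0.272, 0.239 and 0.268 CPM. Void 4 alone held 63.8% of the 185 void counts, and void 10 was below every DHT mouse. The exact Poisson 95% interval was 97.7 to 141 counts for void 4 and 1.62 to 11.7 counts for void 10, which covers counting error only. The groups were at 0.919 ± 0.908 and 0.290 ± 0.0605 CPM (SD, n = 5 each), and without void 4 the void mean was 0.525 ± 0.254 CPM (SD, n = 4). The log2FC was -1.71 (SE 0.55), the largest in size among the 10 genes, and it was not called (adjusted p = 0.104, edgeR). It became -0.86 without void 4. The adjusted p was 0.0317 with DESeq2 and 0.0498 in edgeR without void 10, and limma voom gave a log2FC of -1.13 (SE 0.67) with an adjusted p of 0.400.

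The cornichons overlapped between the groups. Cnih2 was at 163, 141, 215, 200.2 and 183 CPM in void 4, 5, 9, 10 and 11 and at 192, 169, 150.2, 223 and 280.0 CPM in DHT 1, 2, 3, 5 and 6. DHT 6 was the highest and void 5 the lowest of all mice. With a log2FC of 0.17 (SE 0.16), Cnih2 was the one gene of the 10 with a positive value, and without both void 5 and DHT 6 it was at -0.05. Cnih3 lay between 46.8 and 65.4 CPM with void and between 42.0 and 67.7 CPM with DHT, and its log2FC of -0.09 (SE 0.14) was smaller than its error.

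Gsg1l showed a wider spread in the void group than in the DHT group. The void mice 4, 5, 9, 10 and 11 were at 28.2, 47.3, 29.2, 35.3 and 44.8 CPM, and the DHT mice 1, 2, 3, 5 and 6 at 21.1, 23.3, 23.4, 30.6 and 24.5 CPM. DHT 5 was above void 4 and void 9, so the groups overlapped. Means of 36.9 ± 8.77 and 24.6 ± 3.57 CPM (SD, n = 5 each) gave a log2FC of -0.59 (SE 0.15).

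The secreted partners were lower on average with DHT, and none of the 3 was called. Vwc2 was at 6.85, 7.41, 6.02, 6.31 and 6.08 CPM in the void mice and at 5.08, 5.92, 5.82, 5.72 and 4.70 CPM in the DHT mice, in the order of their replicate numbers. Although these groups did not overlap, void 9 (194 counts) and DHT 2 (240 counts) were nearly level, and the log2FC was -0.26 (SE 0.10). Vwc2l was at 18.01, 26.1, 15.7, 18.3 and 21.7 CPM in the void mice and at 12.3, 15.96, 15.6, 15.4 and 6.37 CPM in the DHT mice. DHT 6 was far below all others, while DHT 2, 3 and 5 were level with void 9, and the log2FC was -0.60 (SE 0.22). Olfm3 ranged from 31.5 to 48.4 CPM with void and from 25.3 to 40.2 with DHT, with a log2FC of -0.23 (SE 0.14). That value was -0.13 without void 5 and -0.15 without DHT 6, the highest and the lowest of the 10 mice for this gene.

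Both calls were close to the limit. The adjusted p was 0.0428 for Shisa9 and 0.0458 for Gsg1l, and each was under the limit in 3 of the 10 fits that left out 1 mouse. The call of Shisa9 was lost without void 4, 5, 10 or 11 or without DHT 1, 3 or 6, with log2FC values between -0.36 and -0.27 over the 10 fits and a highest adjusted p of 0.106. That of Gsg1l was lost without void 5, 10 or 11 or without DHT 1, 2, 3 or 6, with log2FC values between -0.71 and -0.48 and a highest adjusted p of 0.107. Over the same 10 fits the number of all genes called lower ranged from 5 (without void 11) to 77 (without DHT 2). The signs of Shisa9 and Gsg1l stayed negative in all 10 fits, as the plot of fold changes with each mouse left out shows.

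**Figure D2:**
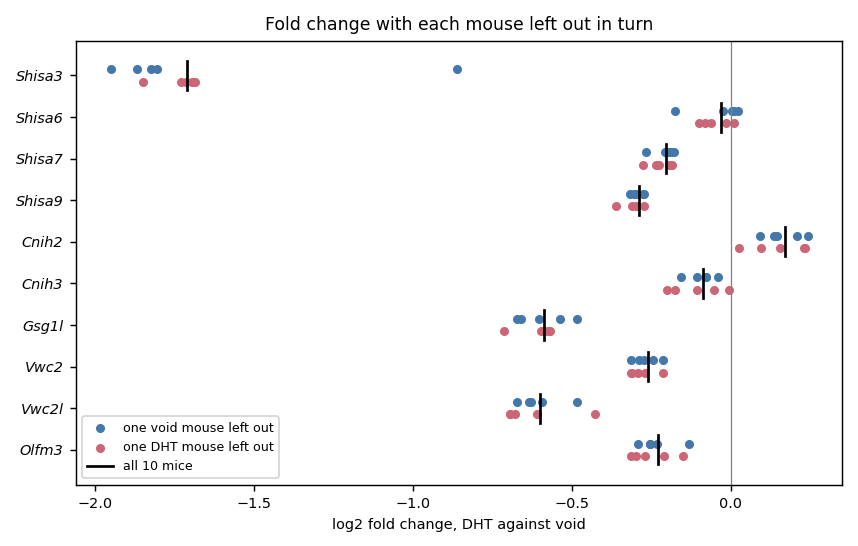
Log2 fold change (DHT against void) of each gene with all 10 mice (black line) and with 1 void mouse (blue) or 1 DHT mouse (red) left out. Shisa3 moves from -1.71 to -0.86 without void 4, and Shisa6 spreads around 0, while the points of Shisa9 and Gsg1l stay below 0.

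A pair of mice stood at the ends of the range for most of these genes. Void 5 was the lowest of all 10 mice for Shisa6 and Cnih2 and the highest for Gsg1l, Vwc2, Vwc2l and Olfm3. DHT 6 was the reverse for 4 of these genes, highest for Cnih2 (and for Cnih3) and lowest for Vwc2, Vwc2l and Olfm3. On the log2 scale, Cnih2 was 0.42 under its 10-mouse mean in void 5 (-0.42) and 0.58 above it in DHT 6, while Vwc2l was 0.73 above its mean in void 5 and at -1.29 in DHT 6.

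The base composition of the transcripts moved with this balance for some of the genes. Cnih2 had a GC content of 62.3% in its longest transcript, above 98.5% of the genes tested, and Olfm3 one of 36.7%, among the lowest 1.45%. Vwc2l was at 42.8% and Vwc2 at 45.2% GC. Over all genes, the 10% with the highest GC content were on average 0.38 above their 10-mouse mean (log2) in DHT 6 and at -0.12 in void 5. The 10% with the lowest GC content were at -0.25 in DHT 6 and at 0.11 in void 5. Void 5 was not the extreme mouse here, as the highest-GC 10% were at -0.20 in void 4 and the lowest-GC 10% at 0.21 in DHT 3. DHT 5 (0.25 for the highest, -0.14 for the lowest) and void 9 (0.14 and -0.17) had the same signs as DHT 6. Between void 5 and DHT 6, Gsg1l, Cnih3 and Shisa6 did not follow the order of GC content. Gsg1l (56.9% GC) was highest in void 5, Cnih3 (53.3% GC) was above its mean in both void 5 (0.23) and DHT 6 (0.28), and Shisa6 (49.5% GC, near the median gene) was lowest in void 5. With offsets for GC content per library, Shisa9 and Gsg1l were again the called genes, in a fit that called 300 of all genes lower, against 46 without offsets. Without both void 5 and DHT 6, a choice made after seeing the data, Shisa7 was called (log2FC -0.34, SE 0.06, adjusted p = 0.0270 from edgeR) and Shisa9 and Gsg1l were not, with 60 of all genes called lower.

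**Figure D3:**
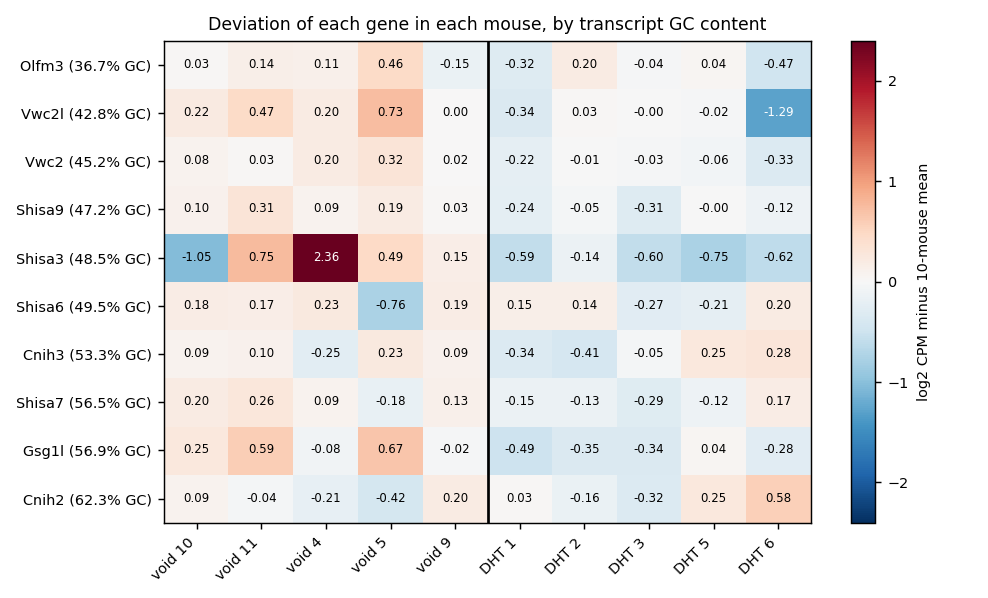
Log2 CPM of each gene in each mouse minus its mean over the 10 mice, with genes ordered from low (top) to high (bottom) transcript GC content and the groups parted by the black line. Void 5 and DHT 6 have opposite signs for 9 of the 10 genes, all but Cnih3, and the single largest value is that of Shisa3 in void 4.

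Choroid plexus markers were higher with DHT, and within the void group Gsg1l, Vwc2l and Shisa9 tended to be lower where the markers were higher. The 12 markers summed to 114 to 1852 CPM in void mice and 2094 to 2963 CPM in DHT mice; all 12 had a positive log2FC, 4 were called higher, and none was at 0. In the void mice, the sums were 114 in void 5, 120 in void 11, 441 in void 10, 919 in void 4 and 1852 in void 9, and Gsg1l in the same order was at 47.3, 44.8, 35.3, 28.2 and 29.2 CPM. The 2 void mice with the lowest sums thus had the highest Gsg1l, and void 4 and 9 were within the range of the DHT mice. The sum of the 8 neuron markers fell in this same order of void mice, at 7592, 7309, 6995, 6857 and 6788 CPM. The parts of choroid plexus and neuron markers in this order were not tested apart. Vwc2l in this order was at 26.1, 21.7, 18.3, 18.01 and 15.7 CPM, and Shisa9 at 78.4, 85.2, 73.8, 72.9 and 70.1 CPM. These 3 were picked from the 10 genes. Vwc2 and Olfm3 were likewise highest in void 5 and lowest in void 9 among the void mice. Cnih2 went the other way, at 141, 183, 200.2, 163 and 215 CPM. Shisa6, at 141, 268, 270, 280.5 and 272 CPM, and Shisa7 were lowest in void 5. Cnih3 was lowest in void 4 and Shisa3 in void 10. Within the DHT group, from the lowest choroid plexus sum to the highest (DHT 2, 3, 5, 6 and 1), Gsg1l showed no falling order, at 23.3, 23.4, 30.6, 24.5 and 21.1 CPM. There Vwc2l was at 15.96, 15.6, 15.4, 6.37 and 12.3 CPM, and Shisa9 at 66.3, 55.3, 68.5, 63.3 and 58.1 CPM. With the mean of the markers as a covariate, Gsg1l had a log2FC of 0.00202 (SE 0.15) and Shisa9 of -0.10 (SE 0.11). In that fit Shisa3 (-2.32), Shisa6 (-0.34) and Shisa7 (-0.23) were farther below 0 than without the covariate. The remaining genes were nearer to 0 or changed sign. With this covariate 0 of all genes tested were called, and the covariate itself parts the groups.

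**Figure D4:**
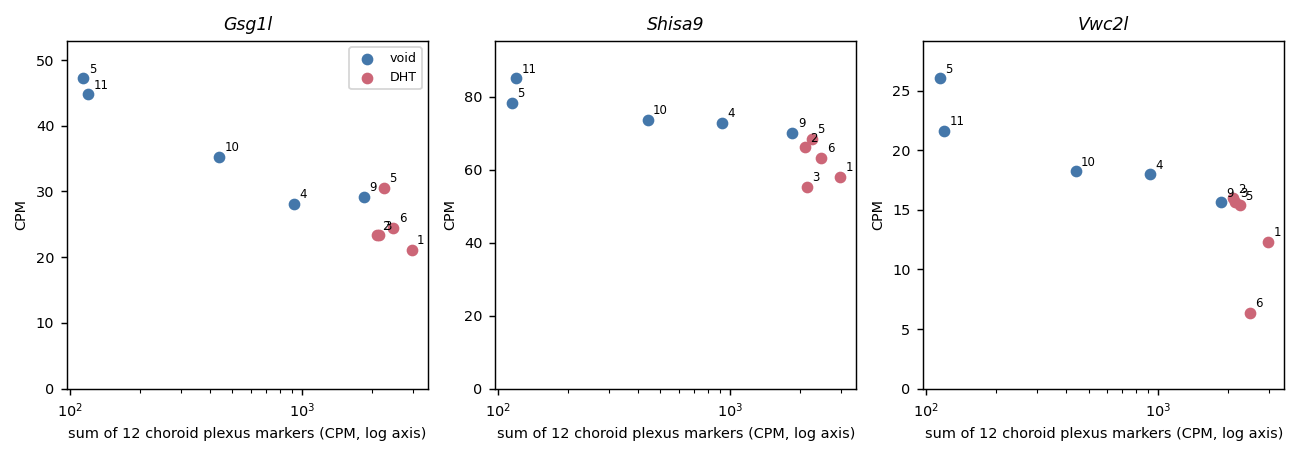
Level of Gsg1l, Shisa9 and Vwc2l (CPM, linear axis from 0) against the summed CPM of 12 choroid plexus markers (log axis) in each mouse, void in blue and DHT in red, with replicate numbers. Void 5 and 11, with the lowest marker sums, have the highest levels of each gene, and void 9, with the sum nearest to the DHT mice, is near them in level.

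Neuron markers also differed between the groups. The 8 markers summed to 6788 to 7592 CPM in void mice and 5931 to 6736 CPM in DHT mice, all 8 had a negative log2FC (median -0.10), none was called and none was at 0. The sums did not overlap. With libraries scaled on these 8 genes, the median of all genes moved to 0.14 and that of the 10 genes to -0.12. Gsg1l was then called (log2FC -0.46) and Shisa9 was not (-0.17), and Shisa6 and Cnih3 turned positive. Of all genes, 8 were called lower in that fit and 1813 higher. The 10 microglia markers summed to 464 to 559 CPM with void and 682 to 1059 CPM with DHT, with 7 of them called higher. Of the markers of other cells and regions, 1 each was called higher for CA2, striatum, astrocytes, endothelium and meningeal fibroblasts, and 0 for CA3, inhibitory neurons, thalamus, neocortex and oligodendrocytes. Their list medians ran from -0.21 for neocortex to 0.25 for CA2. Of the 7 neocortex markers 6 were negative, and their sums overlapped, at 434 to 506 CPM with void and 351 to 467 CPM with DHT. The part of neuron content in these differences was not tested beyond that scaling, and that of microglia content was not tested.

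Other genes of the AMPA receptor system were not called. The 33 genes are on 4 lists, which hold pore subunits, TARPs (the transmembrane regulatory proteins of the Cacng family), assembly factors and other partners. Of these, 0 were called by edgeR at an adjusted p under 0.05, where 5.48% of all genes tested were. An unadjusted p under 0.05 was found for 5 of the 33 and for 17.4% of all genes tested. DESeq2 called 2 of the 33, Gria3 and Cacng2, both lower, in a fit that called 224 of all genes lower and 1221 higher. The 4 pore subunits Gria1 to Gria4 had log2FC values from -0.28 to -0.05. Among them Gria3 was at -0.18 (SE 0.06, adjusted p = 0.115 from edgeR) and Gria4 at -0.28 (SE 0.11, adjusted p = 0.185).

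Of the 6 TARPs, 3 had a negative and 3 a positive log2FC. Cacng2 (stargazin), the founding member, was at -0.21 (SE 0.07, adjusted p = 0.117 from edgeR), and Cacng3 at -0.22 (SE 0.12). The 6 assembly factors, which act on AMPA receptors in the endoplasmic reticulum or are bound there, ranged from -0.13 to 0.10, with Abhd12 at 0.10 (SE 0.05) and Sacm1l at -0.13 (SE 0.09). Of the 17 other partners 14 were negative, with a median of -0.09, and the lowest p among them were those of Grip1 at -0.15 and Grip2 at -0.24, a pair of scaffolds that bind the C-terminal ends of AMPA receptor subunits.

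**Figure D5:**
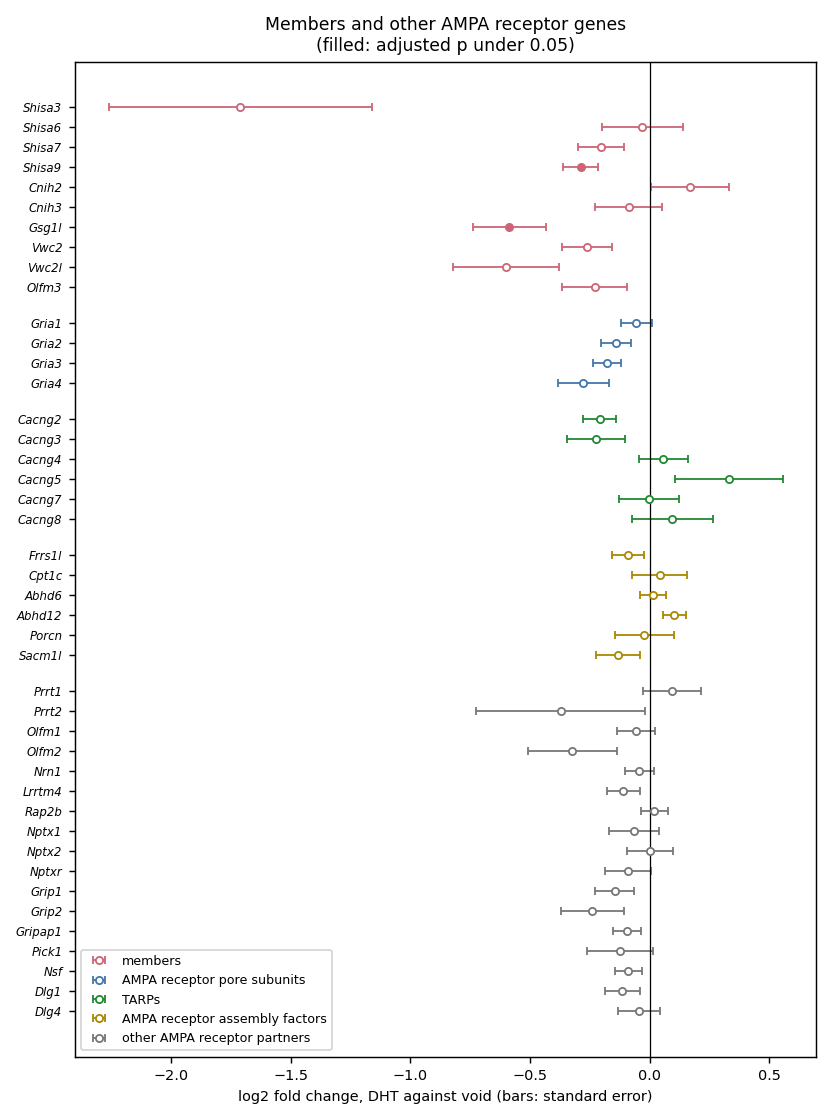
Log2FC (DHT against void, bars for the standard error) of the 10 genes described here and of 33 other AMPA receptor genes in 4 lists, with filled points for an adjusted p under 0.05. Shisa9 and Gsg1l are the filled points, and the remaining points are open.

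Other members of the same gene families were measured beside them, among them Shisa8, a further cystine-knot auxiliary protein of AMPA receptors, and Olfm1 and Olfm2, which are also counted among the partners above. Of 13 such genes 11 were tested, 7 with a negative log2FC, where 47.6% of all genes tested were negative. By edgeR 0 of the 11 were called, where 5.48% of all genes were. An unadjusted p under 0.05 was found for 2 of the 11 and for 17.4% of all genes. These were Shisa2 at 0.58 (SE 0.18, adjusted p = 0.0844 from edgeR) and Shisa5, a p53-induced gene, at 0.29 (SE 0.10, adjusted p = 0.142). Both were higher with DHT on average, unlike the 4 Shisa genes above, and DESeq2 called Shisa2 (adjusted p = 0.0368). The ubiquitous cornichons Cnih1 and Cnih4 were at -0.05 and 0.03.

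Promoter sequence was on hand for 7 of the 10 genes, with 8 start sites (RefSeq, GRCm38.p6, windows of 300 bases). It was lacking for Shisa6, Shisa9 and Gsg1l, so the genes called lower, Shisa9 and Gsg1l, were not searched. The motifs searched on both strands were AGGTCA, the core motif of many nuclear receptors, and AGAACA, one arm of the androgen response element. AGGTCA was in 0 of the 8 windows and in 16.3% of 32851 promoters, and AGAACA was in 1 of the 8, that of Cnih2, and in 19% of all. The palindrome of AGAACA and TGTTCT with 3 bases between them was in none of the 8 and in 0.00913% of all, and the direct repeat of AGGTCA with 1 base between the copies was in none of the 8 and in 0.0396% of all; both contain the short motifs. The windows differed in base composition: that of Shisa3 had 70.0% GC and 28 CG dinucleotides, that of Cnih2 67.3% and 25, and that of Vwc2l 44.3% and 6, against medians of 52.7% and 7 over all promoters. The 100 bases before the start are shown for the gene with the largest fold change and for the gene farthest below its mean in DHT 6, with CG dinucleotides in capitals. The Shisa3 stretch is chr5:67607783-67607882 and the Vwc2l stretch chr1:70725615-70725714, both on the plus strand upstream of the first exon.
Shisa3: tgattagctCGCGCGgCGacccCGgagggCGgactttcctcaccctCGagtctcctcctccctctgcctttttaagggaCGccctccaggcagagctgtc
Vwc2l: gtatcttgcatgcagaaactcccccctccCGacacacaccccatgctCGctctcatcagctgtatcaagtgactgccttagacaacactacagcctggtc
The Shisa3 stretch holds 8 CG dinucleotides and the Vwc2l stretch 2.

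The spread between mice within a group, on which the calls known at the choice of genes also rest, was largest for Shisa3. Its biological coefficient of variation in edgeR was 0.548, above that of 98.7% of the genes tested, followed by Vwc2l at 0.247 and Shisa6 at 0.190. Shisa9 was the steadiest at 0.0913, in the lowest 21.4%. The 5 genes most like Shisa3 over the 10 mice, by Pearson correlation of log2 CPM less the group mean among 14836 genes with at least 1 CPM, were Ptcd2 (r = 0.92), Psmd5 (0.90), Bckdhb (0.89), Gins4 (0.88) and Rcl1 (0.87). Spearman's rho was 0.89 for Ptcd2, 0.72 for Psmd5 and Gins4, 0.42 for Bckdhb and 0.39 for Rcl1, and without void 4 the Pearson r of the 5 genes lay between 0.76 and 0.87. These are the highest of 14836 values, and the levels of the 5 genes varied little; Ptcd2 ranged from 23.4 to 27.2 CPM.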

How the data were processed

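The authors deposited raw counts per gene for 10 libraries. Per their methods, paired-end reads of mRNA libraries were trimmed and filtered with HTStream, aligned with STAR (2.7.10b per the submitters' processing notes) and counted. The paper names the build mm10 and the processing notes mm39 (GRCm39). Annotation release, strand setting and the handling of reads that match several genes are not given in the sources used here, so reads shared by relatives or overlapping genes may be divided. Symbols were found for 51948 of 56884 gene IDs in GENCODE M21, which also gave lengths, GC content and coding sequences, and the coordinates are those of the sequence sources.

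Counts were tested in R 4.3.3, and scaled to CPM, with edgeR 4.0.16 (TMM, expression filter by group, quasi-likelihood test, Benjamini-Hochberg adjustment over all 17622 genes tested), after a test of the scripts on simulated data. Standard errors were derived from F, as the size of the log2FC over its root. Alternatives were DESeq2 1.42.0, limma 3.58.1 (voom with sample quality weights), other size factors and filters, and leaving out each mouse. GC offsets (lowess per library), scaling on neuron markers, a choroid plexus covariate and leaving out 2 mice were added after seeing the data. The genes and lists were chosen with earlier results of these data known. Named from each list were genes with an adjusted p under 0.05 and the 2 with the lowest p. Beyond that rule, Cnih1 and Cnih4 were named after their values were seen.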

Additional observations from a re-analysis of the deposited data

Results flagged for a closer look

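In 34 groups of 5 mice (the 10 genes and Gria2, Gria3, Gria4, Cacng2, Abhd12, Shisa2 and Shisa5, each in 2 treatments), a mouse was set apart when its gap to the nearest mouse was over 0.71 of the group's range, which chance gives in about 1.7 groups. This held for 3 groups. For Shisa3, void 4 was the highest void mouse (ratio 0.743) and DHT 2 the highest DHT mouse (0.782), at 118 and 16 counts. The exact Poisson 95% interval of DHT 2 was 0.226 to 0.641 CPM. It covers the remaining DHT mice, at 0.239 to 0.273 CPM, so DHT 2 is within counting error of them. For Shisa6, void 5 was the lowest void mouse (0.914), at 141 CPM against at least 268 CPM in the other void mice.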

How the results depend on the processing

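No paired analysis was possible because the labels used here give no litter and 5 is the one replicate number found in both groups, which does not pair different animals. Per the study's methods, treatment was randomized among littermates, and an effect of litter was not tested. The number of the 10 genes called, 2 with all mice, ranged from 0 to 2 with 1 mouse left out, in fits that called 5 to 77 of all genes lower. It was 3 with DESeq2 (Shisa3, Shisa9 and Gsg1l), which called 224 of all genes lower where edgeR called 46, and it was 0 with a log2 fold change beyond 1, 1 with scaling on neuron markers, 0 with the choroid plexus covariate and 1 without both void 5 and DHT 6. The number of the 33 other AMPA receptor genes called, 0 in the fit reported, was 2 with DESeq2, 1 with GC offsets and 1 with scaling on neuron markers. Signs turned for Shisa6 when 1 mouse was left out (-0.176 to 0.0211) and with scaling on neuron markers (0.0925), for Cnih3 with that scaling (0.0331) and with the choroid plexus covariate (0.0858), for Cnih2 with that covariate (-0.0257) and without both void 5 and DHT 6 (-0.0521), and for Gsg1l (0.00202) and Olfm3 (0.10) with that covariate. Shisa3 had fewer than 10 counts in some libraries and gave no value under the strictest filter. Of 339 values compared for single genes, these reversals included, 298 kept their sign and their side of the limit, 18 lost the call, 12 gained one and 11 changed sign. The cause was not tested. Depth was lowest for Shisa3, with 5 to 118 counts per library, followed by Vwc2 with 158 to 324.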
